A study of Homo sapiens with 36 samples.

Results

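Genes of superoxide removal, zinc binding and zinc uptake were followed in A549 cells exposed to IL-1β and then released from it. They were SOD2, the metallothioneins MT1E, MT1F, MT1G, MT1X and MT2A, and the zinc importers SLC39A8 and SLC39A14, 8 of the 63677 genes listed in the count tables. The tables give Ensembl identifiers, and 7 of the genes were found through the symbols of the reference annotation. SOD2 was taken from the row of ENSG00000112096, its older Ensembl identifier, because the annotation lists SOD2 under a newer one that the tables lack, and no table used here pairs the older identifier with the symbol. That row was kept with the authors' SOD2 fold changes known, so the choice is not independent of them. SOD2 rose 6.72-fold at day 6 of exposure and MT2A rose 3.22-fold, and for these 2 genes the rise was also past the thresholds at days 15 and 21. After IL-1β withdrawal none of the 7 tested genes differed from the untreated cells past the thresholds. Of all tested genes only 1.8%, 0.954% and 0.897% passed them at days 6, 15 and 30 after withdrawal.

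SOD2 is the manganese superoxide dismutase of the mitochondrial matrix. It turns superoxide into hydrogen peroxide, and it is known as a target of NF-κB in epithelial cells that meet inflammatory cytokines. Metallothioneins are small cysteine-rich proteins that hold zinc and copper, and their genes are switched on by the zinc-sensing factor MTF1, which binds metal response elements in their promoters. SLC39A8 (ZIP8) and SLC39A14 (ZIP14) are close relatives in the ZIP family that carry zinc, manganese and iron into the cytosol, and both are known to respond to inflammation.

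A549 is an established human non-small cell lung cancer (NSCLC) line. The cells were grown in RPMI medium with 10% FBS, either untreated (control) or with IL-1β at 1 ng/ml, and were harvested at days 6, 15 and 21 of exposure. Cells exposed for 21 days were then harvested at days 6, 15 and 30 after IL-1β withdrawal, each time beside untreated control cells. The 12 groups held 3 libraries each, labelled as biological replicates, and the time course asks which expression changes outlast the cytokine. All groups come from 1 line in culture, so the values say nothing of other lines or of tumour tissue.

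The libraries held 9116032 to 23570026 reads on genes (median 15902700). In 11 of the 36 libraries mitochondrial genes took 11.8% to 24.6% of these reads, against 5.61% to 7.75% in the other 25. Of the 11 libraries, 6 were control and 5 were IL-1β libraries, 8 carried the replicate number 2 and 8 were harvested after withdrawal. For the genes followed here, most log2 fold changes below are set beside their values without these 11 libraries. The epithelial markers KRT7, KRT8, KRT18 and CDH1 had at least 27.5 CPM (read counts scaled to a common library size) in every library, whereas EPCAM reached no more than 1.63 CPM and KRT19 no more than 0.195 CPM. The alveolar markers NKX2-1, SFTPA1, SFTPA2 and SFTPC stayed under 0.387 CPM, and SFTPB and NAPSA under 1.68 CPM. Of the leukocyte markers, PTPRC, CD3E, MS4A1 and CD68 stayed at or under 0.696 CPM and LYZ at or under 1.17 CPM, while CD14 lay between 1.67 and 16.4 CPM. Endothelial VWF, CDH5 and KDR reached at most 0.290 CPM and the fibroblast markers at most 3.44 CPM, the highest being COL1A1, and PECAM1 was not matched.

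On GRCh37, SOD2 lies on chromosome 6 at 160090101 to 160183561, on the minus strand. The metallothioneins lie together on chromosome 16, with MT2A at 56642496 to 56643409, MT1E at 56659387 to 56661024, MT1F at 56691643 to 56694610 and MT1X at 56716382 to 56718108 on the plus strand, and MT1G at 56700642 to 56701977 on the minus strand. SLC39A8 lies on chromosome 4 at 103172237 to 103352415 on the minus strand, and SLC39A14 on chromosome 8 at 22224791 to 22291642 on the plus strand. Reads were counted over exons of each gene. Metallothionein sequences resemble each other, and 16.5% of the 50-base windows of MT1G transcripts and 18.7% of those of MT1X were also found in transcripts of other genes, against 4.48% for MT2A, 7.10% for MT1E and 1.24% for MT1F. Reads from such windows could be misplaced or lost, so the levels of MT1G and MT1X are less certain than those of MT2A. In SOD2, 9.66% of the windows were shared, mostly with the overlapping SOD2-OT1, against 2.25% in SLC39A8 and 0.115% in SLC39A14.

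Promoter sequences from RefSeq (build GRCh38.p14) were matched for 4 of the 8 genes, MT2A, MT1X, SOD2 and SLC39A8. The MT2A and MT1X sequences are shown because they are the 2 metallothioneins past the thresholds and hold several copies of the metal response element core. Each is the 250 bases before the transcription start, 5′ to 3′ on the plus strand, with every TGCACNC or TGCGCNC on either strand in capitals.

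MT2A, chr16:56608334-56608583: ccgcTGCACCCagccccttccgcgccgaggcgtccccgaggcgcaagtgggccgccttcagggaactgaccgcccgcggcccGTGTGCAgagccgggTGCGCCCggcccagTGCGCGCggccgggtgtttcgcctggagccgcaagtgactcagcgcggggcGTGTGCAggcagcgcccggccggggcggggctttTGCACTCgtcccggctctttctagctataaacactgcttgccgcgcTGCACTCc

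MT1X, chr16:56682220-56682469: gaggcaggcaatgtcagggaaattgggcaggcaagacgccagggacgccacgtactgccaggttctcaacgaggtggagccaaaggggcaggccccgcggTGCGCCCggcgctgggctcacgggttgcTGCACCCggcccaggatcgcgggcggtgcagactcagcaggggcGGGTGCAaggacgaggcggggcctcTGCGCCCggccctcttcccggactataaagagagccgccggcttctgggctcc

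The core was found at 7 places before MT2A, the nearest 8 bases from the start, and at 4 places before MT1X. Searched the same way, 24.8% of 35116 RefSeq promoters held at least 1 copy and 1.58% held 3 or more. The 4 windows of SOD2 and the 3 of SLC39A8 held 0 to 2 copies. The NF-κB consensus was found in 2 of the 3 overlapping SLC39A8 windows and in none of the others, with 6.88% of all promoters holding it, and the AP-1 motif TGANTCA was found before MT2A, as in 6.57% of all promoters. A match of letters is a description of the window and does not show that a factor binds there.

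The genes differed widely in level. Because a longer gene collects more reads, levels of different genes were compared as group mean CPM per kilobase of exon. MT2A was the highest, at 97.7 to 173 CPM per kilobase in the 6 control groups and 118 to 551 in the 6 IL-1β groups. SLC39A14 stood at 10.5 to 15.7 CPM per kilobase in the control groups, SOD2 at 8.10 to 10.8, MT1X at 4.81 to 9.77 and SLC39A8 at 1.58 to 2.06. MT1G and MT1F were lowest among the detected genes, between 0.572 and 1.33 CPM per kilobase in the control groups. The exon length is the union over all annotated transcripts, 18144 bases for SOD2 but 914 for MT2A, so the level of SOD2 is understated where its shorter transcripts prevail. The position, the shared windows and the length of SOD2 are those of the newer gene model, which may differ from the one its reads were counted on.

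**Figure D1:**
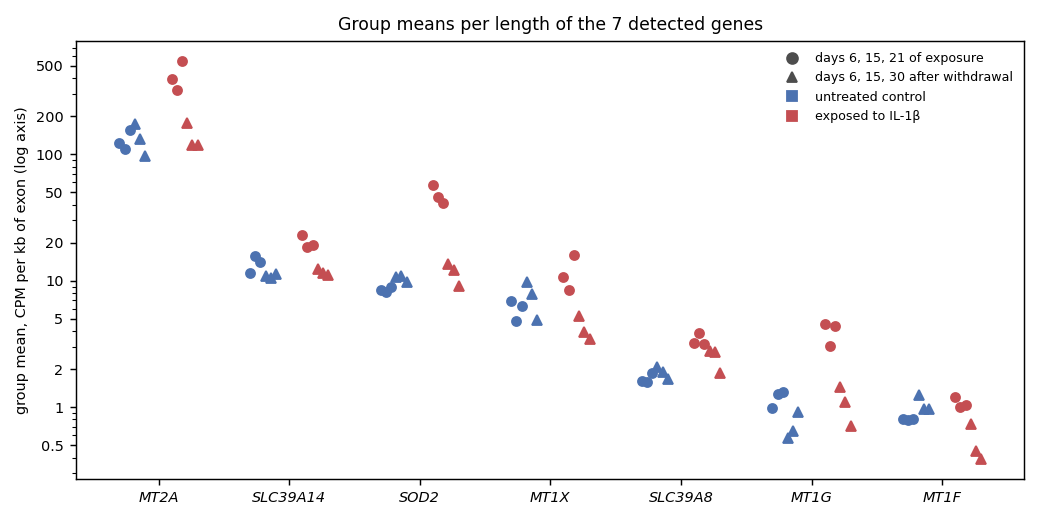
Group means of the 7 detected genes in CPM per kilobase of exon (log axis). Each point is the mean of 3 libraries, blue for untreated control and red for IL-1β, circles for days 6, 15 and 21 of exposure and triangles for days 6, 15 and 30 after withdrawal. MT2A lies highest in every group, and the red circles of SOD2, MT2A, MT1G, SLC39A8 and SLC39A14 lie above all of their other points.

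MT1E was close to undetected. It had 1 read in all 36 libraries, in replicate 1 of day 15 of IL-1β, and 0 reads in the 18 control libraries, which allows up to 0.0106 CPM over those libraries together (3 counts, counting error only). MT1E therefore could not be tested, and the 7 other genes were. The 10 remaining metallothionein genes and pseudogenes of the list (MT1A, MT1B, MT1H, MT1HL1, MT1M, MT3, MT4, MT1L, MT1JP and MT1DP) also had too few reads, none reaching more than 14 in a library.

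The response was tested across 19180 genes as IL-1β against control at each time point, and a gene was called where its adjusted p was below 0.05 and its level changed more than 2-fold. At day 6, 2 of the 7 tested genes were called, SOD2 and MT2A, whereas 2.77% of all tested genes were called. At day 15, SOD2, MT2A and SLC39A8 were called (3 of 7, against 4.24% of all), and at day 21 SOD2, MT2A and MT1X (3 of 7, against 4.26%). All of these calls were increases. The median log2 fold change of the 7 genes was 1.00, 1.27 and 1.32 at the 3 time points, beside -0.02, -0.02 and -0.01 over all tested genes. With the 12 groups put in order of level, every pair of neighbours overlapped in MT2A, MT1X, MT1G, MT1F and SLC39A8, and the only breaks without overlap were below the 3 IL-1β groups of SOD2 and below day 6 of IL-1β in SLC39A14. In bulk samples, more RNA per cell and more cells that express a gene cannot be told apart.

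**Figure D2:**
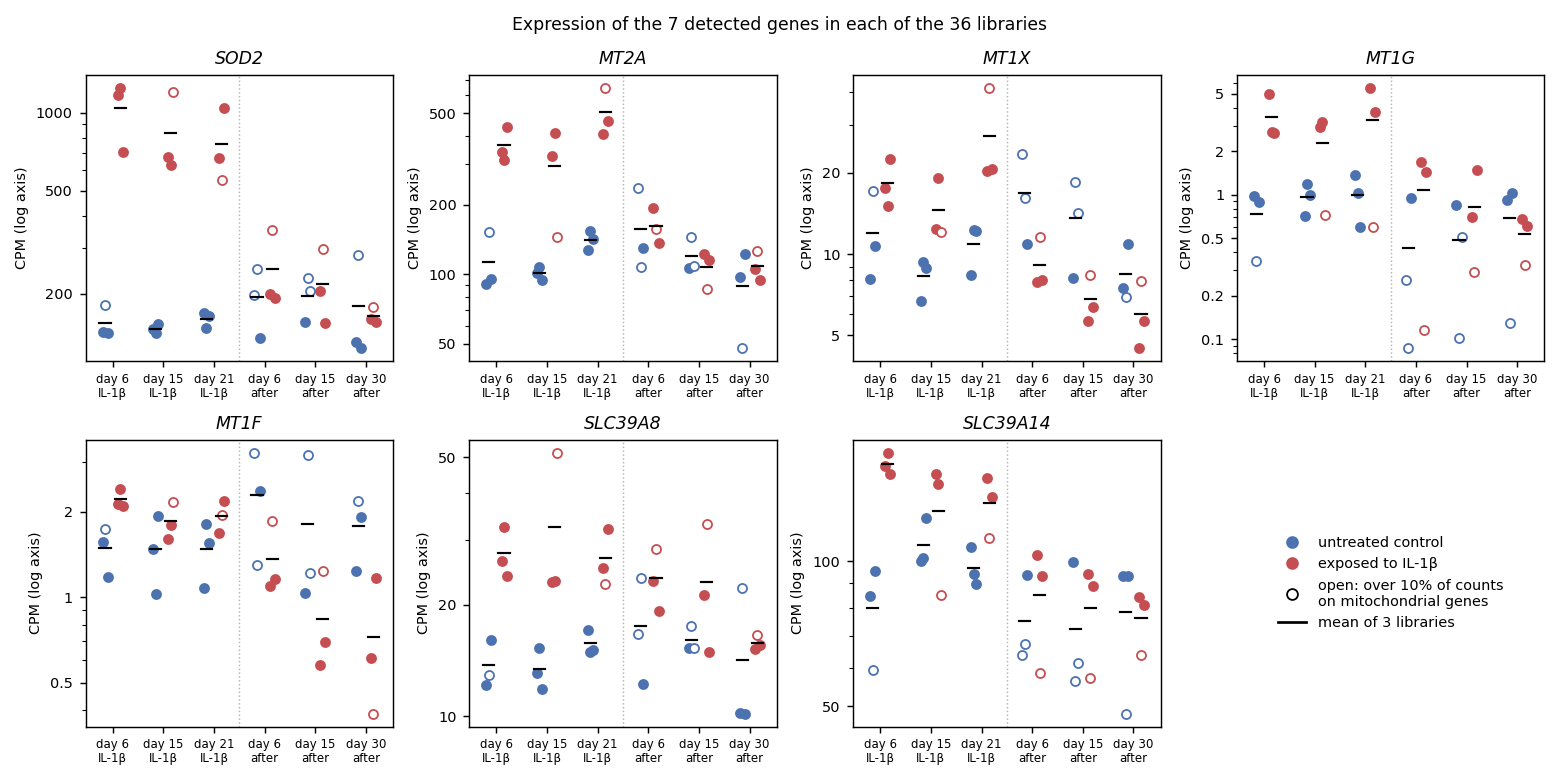
CPM of the 7 detected genes (log axis) in each of the 36 libraries at the 6 time points, with a bar at the mean of 3 libraries, blue for untreated control and red for IL-1β. Open circles are the 11 libraries of high mitochondrial share. The SOD2 libraries with IL-1β lie between 552 and 1248 CPM, above all others, and the open circles of MT1G and SLC39A14 lie low within their groups.

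SOD2 showed the largest log2 fold change of the 7 tested genes at each time point with IL-1β in the fit of all libraries. At day 6 it was at 142, 181 and 141 CPM in the control libraries and at 1168, 1248 and 702 CPM with IL-1β, a log2 fold change of 2.75 (SE 0.34, edgeR adjusted p = 2.39e-06). At day 15 the control libraries held 146, 142 and 153 CPM and the IL-1β libraries 676, 627 and 1198 CPM, a log2 fold change of 2.50 (SE 0.33, edgeR adjusted p = 5.99e-06). At day 21 the levels were 169, 148 and 165 CPM against 668, 552 and 1040 CPM, a log2 fold change of 2.23 (SE 0.33, edgeR adjusted p = 2.5e-05). The lowest IL-1β library was thus more than 3 times the highest control library at each of these times. The 3 IL-1β groups overlapped each other but not the next group in order of level. The rise was called in all 13 alternative fits at each time, with log2 fold changes from 2.61 to 2.94, from 2.15 to 2.68 and from 1.94 to 2.43. The high-mitochondrial libraries tended to hold more SOD2 than the others of their group (8 of 9 groups with both kinds, median log2 difference 0.72), and without them the log2 fold changes were 2.90, 2.15 and 2.43.

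After withdrawal SOD2 lay near its control level. At day 6 after withdrawal the control libraries were at 198, 249 and 135 CPM and the formerly exposed ones at 199, 353 and 193 CPM. At day 15 the values were 156, 230 and 204 CPM against 205, 297 and 155 CPM, and at day 30 they were 131, 283 and 124 CPM against 161, 179 and 156 CPM. The groups overlapped at all 3 times. The log2 fold changes were 0.36 (95% interval -0.29 to 1.01), 0.15 (-0.49 to 0.80) and -0.12 (-0.76 to 0.53), so a remaining rise of the size seen with IL-1β lies outside each interval. These fold changes were 0.55, 0.21 and 0.32 without the high-mitochondrial libraries, which left 1 control library at day 6 and at day 15. At day 30 the remaining groups, of 2 libraries each, did not overlap (156 to 161 CPM against 124 to 131 CPM in control). With so few libraries this says little. SLC39A8 also lay above its controls there, while MT1F, MT1G, MT1X and SLC39A14 lay below theirs, each without overlap. Tested directly, the SOD2 response at day 30 after withdrawal was lower than that at day 21 of IL-1β by a log2 difference of -2.34 (SE 0.45, edgeR adjusted p = 0.00647). That call was lost without replicate 1 (-2.66, adjusted p = 0.484) and without replicate 2 (-2.05, adjusted p = 0.0653) in edgeR, and it stood without the high-mitochondrial libraries (-2.10, adjusted p = 0.000279). At day 6 after withdrawal the difference from day 21 was -1.87 (SE 0.45) with an edgeR adjusted p of 0.138, and without the high-mitochondrial libraries it was -1.87 with an adjusted p of 0.0116, where 0.104% of all genes were called. Only 1 control library of day 6 after withdrawal was left in that fit, which assumes that it varies like the other groups.

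Of the metallothioneins, MT2A, the most abundant, rose at all 3 times with IL-1β. At day 6 it was at 90.7, 152 and 95.4 CPM in control libraries and at 339, 313 and 437 CPM with IL-1β, a log2 fold change of 1.69 (SE 0.33, edgeR adjusted p = 0.00116). At day 15 it was at 101, 108 and 94.9 CPM against 325, 411 and 145 CPM (log2 fold change 1.53, SE 0.32, edgeR adjusted p = 0.00229), and at day 21 at 128, 154 and 142 CPM against 404, 646 and 461 CPM (1.83, SE 0.33, edgeR adjusted p = 0.000327). The groups did not overlap at any of these times, although the day 15 library at 145 CPM, replicate 3, came close to the controls. That library is among the 11 of high mitochondrial share, and so is the control library at 152 CPM. Without those libraries the log2 fold changes were 1.98, 1.86 and 1.63, each past both thresholds. The day 21 call held in all 13 alternatives. Without replicate 1 the calls at day 6 (1.61, edgeR adjusted p = 0.13) and day 15 (1.47, adjusted p = 0.145) were lost, as was the day 6 call without replicate 3 (1.45, adjusted p = 0.0567). The day 15 call was also lost in the separate fit of that time point. The calls at days 6 and 15 thus each held in 11 of 13 alternatives.

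Following withdrawal the level of MT2A overlapped that of the controls. The IL-1β groups held 136 to 194 CPM at day 6, 86.5 to 123 CPM at day 15 and 94.3 to 127 CPM at day 30, and the control groups 108 to 236, 106 to 146 and 47.9 to 122 CPM. The log2 fold changes were 0.04 (95% interval -0.61 to 0.69), -0.15 (-0.81 to 0.50) and 0.28 (-0.37 to 0.93). They were 0.37, 0.17 and -0.13 without the high-mitochondrial libraries, which left 1 control library at day 6 and at day 15. The response fell by 1.79 on the log2 scale from day 21 to day 6 after withdrawal (SE 0.45) and by 1.55 to day 30 (SE 0.45), with edgeR adjusted p-values of 0.17 and 0.156. When the high-mitochondrial libraries were left out, the difference at day 30 was -1.76 and passed both thresholds (edgeR adjusted p = 0.000193), as did 0.849% of all genes tested in those 25 libraries.

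MT1X, less abundant than MT2A per length in all 12 groups, was called at day 21 alone. At day 6 it was at 8.11, 17.1 and 10.8 CPM in the control libraries and at 17.7, 15.1 and 22.5 CPM with IL-1β (log2 fold change 0.62, SE 0.33). At day 15 it was at 6.68, 9.32 and 8.90 CPM against 12.4, 19.2 and 12.1 CPM (0.81, SE 0.34), and at day 21 at 8.38, 12.3 and 12.1 CPM against 20.3, 41.5 and 20.7 CPM (1.32, SE 0.34, edgeR adjusted p = 0.0118). The groups did not overlap at days 15 and 21. The value of 41.5 CPM, replicate 2, comes from a high-mitochondrial library, and MT1X was higher in such libraries in 7 of 9 groups (median log2 difference 0.65). Without those libraries the log2 fold changes were 0.99, 0.92 and 0.92, with edgeR adjusted p-values of 0.00655, 0.0069 and 0.00495 and none over 2-fold. The day 21 call was lost without each of the replicates in turn, with edgeR adjusted p-values of 0.118, 0.136 and 0.0786.

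After withdrawal MT1X was lower in the formerly exposed libraries on average, without passing the test. At day 6 the IL-1β libraries held 7.86, 11.6 and 7.99 CPM against 23.6, 16.2 and 10.9 CPM in control, and at day 15 they held 5.64, 8.36 and 6.38 CPM against 8.18, 18.5 and 14.2 CPM. At day 30 the values were 4.48, 7.93 and 5.66 CPM against 7.48, 6.95 and 10.9 CPM. The log2 fold changes were -0.88, -0.998 and -0.49, with edgeR adjusted p-values of 0.265, 0.211 and 0.771. The 2 highest control libraries at day 6 and at day 15 were of high mitochondrial share, and without the 11 such libraries the values were -0.44, -0.43 and -0.84. Only 1 control library was then left at day 6 and at day 15. The response differed from that at day 21 of IL-1β by -2.20 at day 6 after withdrawal (SE 0.48, edgeR adjusted p = 0.0563) and by -1.82 at day 30 (SE 0.48, edgeR adjusted p = 0.0837). Without the 11 libraries these differences were -1.35 and -1.76. The difference at day 30 then passed both thresholds (edgeR adjusted p = 0.00775), as did 0.849% of all genes tested in the other 25 libraries.

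MT1G was a low-level gene whose values moved with the mitochondrial share. At day 6 it was at 0.981, 0.348 and 0.886 CPM in control libraries and at 4.97, 2.70 and 2.68 CPM with IL-1β, without overlap. At day 15 the values were 0.710, 1.19 and 0.989 CPM against 2.95, 3.20 and 0.724 CPM, and at day 21 they were 1.37, 1.03 and 0.597 CPM against 5.54, 0.599 and 3.73 CPM. The log2 fold changes of 2.17 (SE 0.72), 1.29 (SE 0.69) and 1.76 (SE 0.68) did not pass the test, with edgeR adjusted p-values of 0.0977, 0.35 and 0.157. The low IL-1β libraries at 0.724 and 0.599 CPM, replicate 3 of day 15 and replicate 2 of day 21, were both of high mitochondrial share. In all 9 groups with both kinds of library MT1G was lower in the high-mitochondrial ones, by a median log2 difference of -2.09 (range -3.76 to -0.98). Without the 11 libraries MT1G passed both thresholds at days 6, 15 and 21, with log2 fold changes of 1.89 (SE 0.37), 1.66 (SE 0.34) and 2.26 (SE 0.32) and edgeR adjusted p-values of 0.00188, 0.00222 and 4.63e-05. In the same 25 libraries 3.42%, 4.94% and 4.98% of all tested genes were called. With the mitochondrial share as a covariate instead, the log2 fold changes were 1.77, 1.67 and 2.13, again past both thresholds.

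The levels of MT1G after withdrawal were 0.116 to 1.69, 0.291 to 1.49 and 0.325 to 0.679 CPM in the IL-1β groups and 0.0864 to 0.945, 0.102 to 0.844 and 0.129 to 1.03 CPM in the controls. The log2 fold changes were 1.18, 0.73 and -0.51, none past the test. They were 0.75, 0.43 and -0.60 without the high-mitochondrial libraries, which left 1 control library at day 6 and at day 15. In the 25 other libraries the response at day 30 after withdrawal was lower than that at day 21 by a log2 difference of -2.86 (SE 0.58, edgeR adjusted p = 0.0127), beside -2.28 (SE 1.05, edgeR adjusted p = 0.764) in all libraries.

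**Figure D3:**
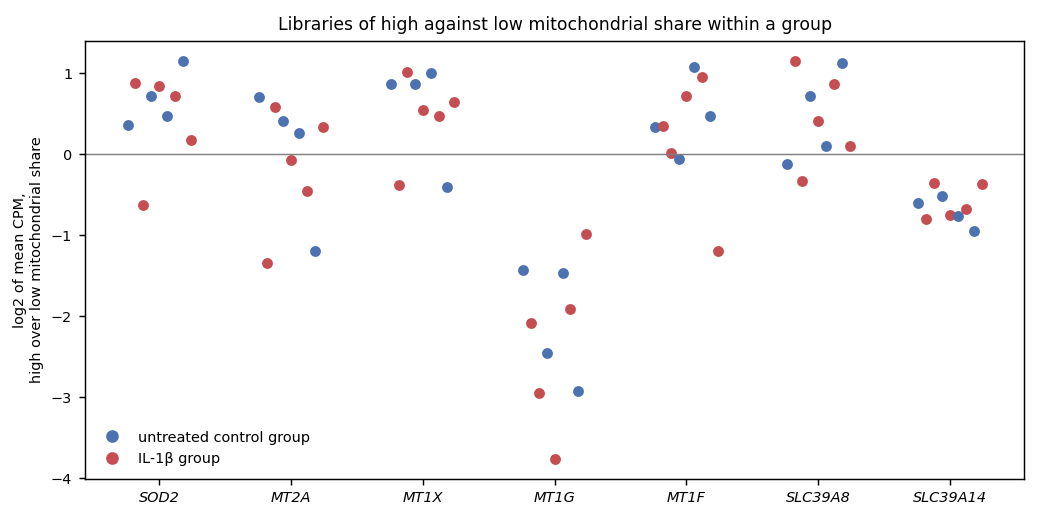
Log2 ratio of mean CPM in libraries of high over low mitochondrial share within a group, for each of the 9 groups that hold both kinds (blue control, red IL-1β). All 9 points lie under 0 for MT1G (median -2.09) and for SLC39A14 (median -0.68), and 8 of 9 lie above 0 for SOD2.

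MT1F had the smallest log2 fold changes of the tested metallothioneins with IL-1β. Its levels were 1.03 to 1.93 CPM in the control libraries of days 6, 15 and 21 and 1.60 to 2.41 CPM with IL-1β, with log2 fold changes of 0.57 (SE 0.38), 0.31 (SE 0.38) and 0.39 (SE 0.37), none past the test. The groups did not overlap at day 6 (1.18 to 1.74 CPM in control, 2.09 to 2.41 CPM with IL-1β) but overlapped at days 15 and 21. At days 6, 15 and 30 after withdrawal the log2 fold changes were -0.77, -1.09 and -1.22. At day 30 the IL-1β libraries held 0.611, 0.390 and 1.17 CPM against 1.24, 2.19 and 1.92 CPM in control, without overlap, and the edgeR adjusted p was 0.208. The value at day 30 without the high-mitochondrial libraries was -0.77 (edgeR adjusted p = 0.495). MT1F had 906 reads over all 36 libraries, which limits the precision of these values.

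Among the importers, SLC39A8 was called at day 15. At day 6 it was at 12.2, 13.0 and 16.1 CPM in control libraries and at 26.2, 32.4 and 23.9 CPM with IL-1β, a log2 fold change of 1.00 (SE 0.31, edgeR adjusted p = 0.0626). At day 15 it was at 13.1, 15.3 and 11.8 CPM against 23.0, 23.2 and 51.4 CPM (1.27, SE 0.31, edgeR adjusted p = 0.00822), and at day 21 at 17.1, 15.0 and 15.1 CPM against 25.2, 22.8 and 32.1 CPM (0.77, SE 0.30, edgeR adjusted p = 0.179). The groups did not overlap at any of the 3 times, and the library at 51.4 CPM, replicate 3, is of high mitochondrial share. When the high-mitochondrial libraries were left out, the log2 fold changes were 0.98, 0.78 and 0.89, with edgeR adjusted p-values of 0.000825, 0.00333 and 0.000814, each under 2-fold. The day 15 call was also lost without replicate 1 (1.48, edgeR adjusted p = 0.186), without replicate 3 (0.70, adjusted p = 0.392) and in the separate fit of that time point. After withdrawal its IL-1β libraries held 19.2 to 28.3, 14.9 to 33.0 and 15.2 to 16.6 CPM against 12.2 to 23.7, 15.3 to 17.5 and 10.2 to 22.3 CPM in control, with log2 fold changes of 0.43, 0.52 and 0.17 (SE 0.31 each), none past the test. The change in the response of SLC39A8 from day 21 was -0.34 at day 6 after withdrawal, with a 95% interval from -1.21 to 0.54. Leaving out the high-mitochondrial libraries gave log2 fold changes of 0.81, 0.24 and 0.60 after withdrawal, and a change from day 21 to day 6 of -0.07. Only 1 control library was then left at day 6 and at day 15. At day 30 the remaining groups, of 2 libraries each, did not overlap (15.2 to 15.6 CPM against 10.18 to 10.22 CPM in control), with an edgeR adjusted p of 0.185. In the same libraries MT1F, MT1G, MT1X and SLC39A14 lay below their controls, also without overlap.

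SLC39A14 was more abundant per length than SLC39A8 in all 12 groups. At day 6 it was at 84.5, 59.5 and 95.5 CPM in control libraries and at 158, 168 and 152 CPM with IL-1β. That was a 1.995-fold rise (log2 fold change 1.00, SE 0.27, edgeR adjusted p = 0.0249), which passed the test but fell just short of the fold threshold. At day 15 it was at 100.2, 101 and 123 CPM against 152, 145 and 85.1 CPM (0.23, SE 0.26), and at day 21 at 107, 93.9 and 89.9 CPM against 149, 112 and 136 CPM (0.45, SE 0.26), with edgeR adjusted p-values of 0.672 and 0.551. The groups overlapped at day 15 through the IL-1β library at 85.1 CPM, again replicate 3 of high mitochondrial share. In all 9 groups with both kinds of library SLC39A14 was lower in the high-mitochondrial ones, by a median log2 difference of -0.68 (range -0.95 to -0.35). Without those libraries the log2 fold changes were 0.84 (SE 0.11), 0.45 (SE 0.10) and 0.57 (SE 0.10), with edgeR adjusted p-values of 1.71e-05, 0.00553 and 0.000636, so SLC39A14 passed the test at all 3 times with a rise under 2-fold. After withdrawal the log2 fold changes were 0.18 (95% interval -0.36 to 0.72), 0.14 (-0.40 to 0.68) and -0.04 (-0.58 to 0.50), and the groups overlapped. These fold changes were 0.08, -0.12 and -0.17 without the high-mitochondrial libraries, which left 1 control library at day 6 and at day 15. From day 21 of IL-1β to day 30 after withdrawal the SLC39A14 response changed by -0.49 in all libraries (SE 0.37, edgeR adjusted p = 0.955). Without the high-mitochondrial libraries it changed by -0.74 (SE 0.16, edgeR adjusted p = 0.017), which is under 2-fold.

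**Figure D4:**
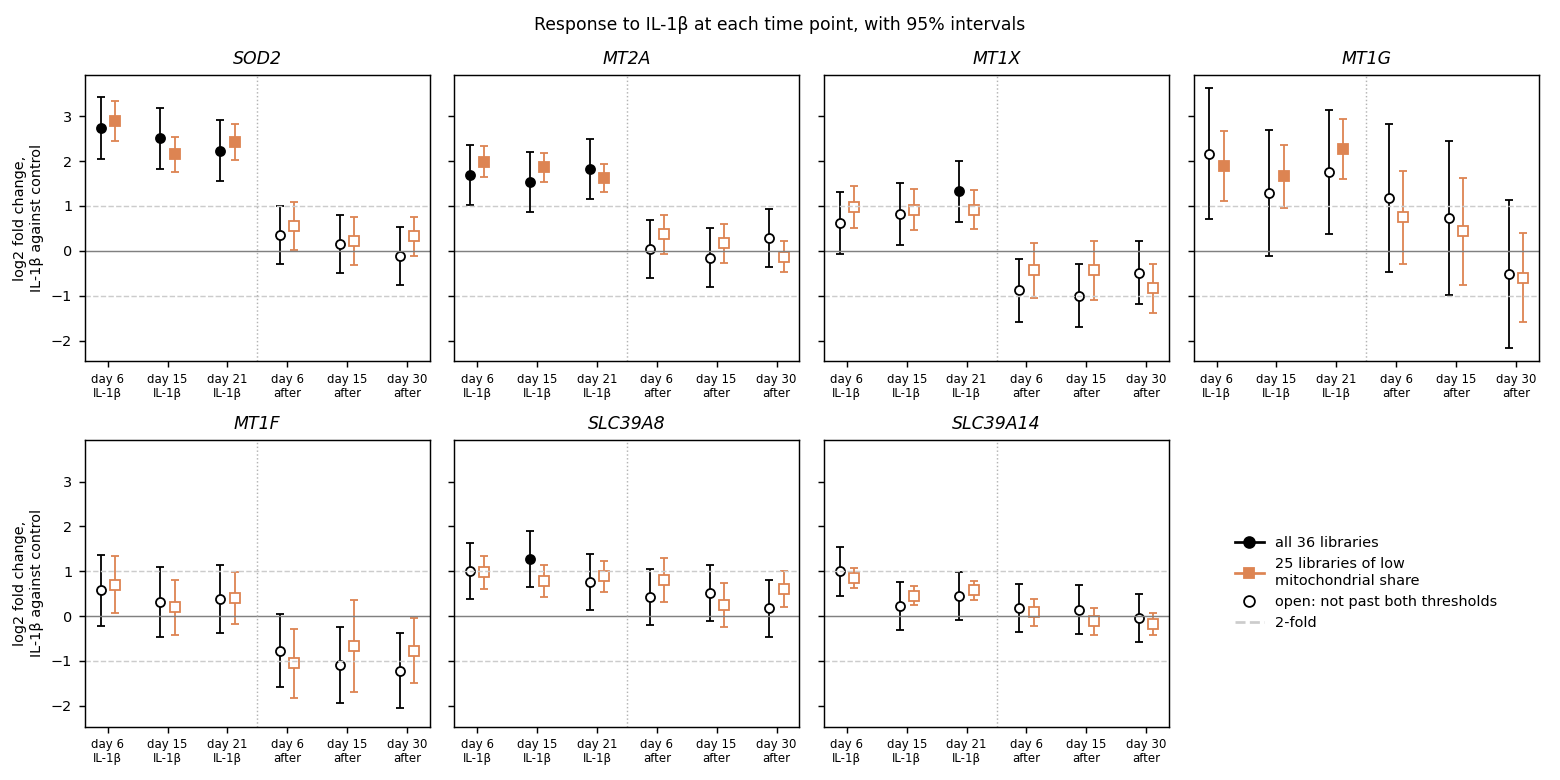
Log2 fold change of IL-1β against control at the 6 time points for the 7 tested genes, with 95% intervals, from all 36 libraries (black circles) and from the 25 libraries of low mitochondrial share (orange squares). Filled symbols passed both thresholds. SOD2 and MT2A are filled at days 6, 15 and 21 in both fits and MT1G in the second alone, and no symbol is filled after withdrawal.

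In the 3 comparisons after withdrawal 0 of the 7 genes were called by edgeR, and 1.8%, 0.954% and 0.897% of all tested genes were called at days 6, 15 and 30. At shares this small, 0 calls among 7 genes is not a difference from the other genes. The median log2 fold change of the 7 genes was 0.18, 0.14 and -0.12, against -0.0014, 0.0232 and -0.0039 over all genes. An unadjusted p under 0.05 was found for 1, 2 and 1 of the 7 at these times, beside 1840, 1679 and 1602 of all 19180 genes. No alternative fit, DESeq2 included, called any of the genes after withdrawal. Some of these fits called few genes of any kind at days 6, 15 and 30, so their 0 calls say little about these 7. Separate fits called 1, 2 and 0 of all genes and the fit without replicate 1 called 29, 15 and 6, beside 346, 183 and 172 in the main fit. Between day 21 and day 6 of IL-1β the response of 0 of the 7 genes differed by edgeR (0.0104% of all tested genes), 0 had an unadjusted p under 0.05 and DESeq2 called 0. Between day 21 and day 6 after withdrawal it was again 0 of 7 by edgeR (0.136% of all), although 4 had an unadjusted p under 0.05 (539 of all 19180 genes) and DESeq2 called 3 (SOD2, MT1X and MT2A). By day 30 after withdrawal it was 1 of 7, SOD2 (0.626% of all). The comparisons with day 21 share the day 21 libraries. Between untreated cells of the last and the first collection 0 of the 7 genes were called by edgeR (0.0104% of all) or DESeq2 and 0 had an unadjusted p under 0.05, with log2 differences from -0.50 for MT1X to 0.23 for MT1F.

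No other gene of the zinc transport lists was called. Of 12 other ZIP importers 9 were tested, and of a list of 11 with the ZnT exporters and MTF1 9 were tested, and edgeR called 0 of them at any of the 6 time points. Over all tested genes the share called was 0.897% to 4.26%. At an unadjusted p under 0.05 there were 0 to 2 importers and 0 to 3 of the exporter list at a time point, and their median log2 fold changes with IL-1β lay between -0.25 and 0.18. SLC30A4, an exporter into vesicles, passed the test at days 15 and 21 with a rise under 2-fold (log2 fold changes 0.79 and 0.66, SE 0.19 each, edgeR adjusted p = 0.0099 and 0.034). MTF1 itself had log2 fold changes of 0.18, 0.21 and 0.20 (SE 0.12 each), and SLC30A1, the exporter known as an MTF1 target, 0.05, 0.13 and 0.08 (SE 0.19 each). Neither passed the test.

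Of 21 other enzymes against superoxide and peroxides 18 were tested, and 1 rose and 1 fell at each time with IL-1β. Of all tested genes 2.77%, 4.24% and 4.26% were called at these times. GPX3, the secreted glutathione peroxidase, was at 0.886 to 2.29 CPM in the control and at 8.43 to 20.9 CPM in the IL-1β libraries of day 6, with log2 fold changes of 3.28 (SE 0.43), 2.53 (SE 0.42) and 3.10 (SE 0.43) at days 6, 15 and 21. After withdrawal they were 0.84, 0.40 and 0.20, so that GPX3, like SOD2, was called during exposure but not later. GPX2, the glutathione peroxidase of epithelial linings, moved the other way and was called at all 6 time points. It fell from 26.9 to 43.5 CPM in control to 1.52 to 1.83 CPM at day 6 (log2 fold change -4.28, SE 0.53, edgeR adjusted p = 2.91e-06). At day 21 the log2 fold change was -4.80 (SE 0.58), and at day 30 after withdrawal it was still -2.15 (SE 0.48, edgeR adjusted p = 0.0166). Without the high-mitochondrial libraries, which leaves 1 control library there, GPX2 was not called at day 15 after withdrawal. The cytosolic superoxide dismutase SOD1 had log2 fold changes of -0.17, 0.07 and -0.02 (SE 0.24 each) with IL-1β, and catalase (CAT) -0.15, -0.11 and 0.04 (SE 0.14 each), none past the test.

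Of 22 genes of iron, manganese and copper handling 20 were tested, and 2, 3 and 1 rose at days 6, 15 and 21. Of all tested genes 2.77%, 4.24% and 4.26% were called then. After withdrawal edgeR called 0 of the 20 (1, 1 and 5 at an unadjusted p under 0.05), beside 1.8%, 0.954% and 0.897% of all. The counts at day 21 and after withdrawal lie near these shares. SLC25A37 (mitoferrin-1), which carries iron into mitochondria, rose at all 3 times, from 37.8 to 54.6 CPM in control to 115 to 146 CPM at day 6 (log2 fold changes 1.47, 1.31 and 1.38, SE 0.14 each, edgeR adjusted p = 2.19e-08 at day 6). The iron-sensing aconitase ACO1 rose at day 6 (1.03, SE 0.14), and the metalloreductases STEAP1 and STEAP2 rose at day 15 (1.53, SE 0.43, and 1.05, SE 0.25). Over the 25 libraries of low mitochondrial share 3, 1 and 2 rose, with STEAP1 called at days 6 and 21, STEAP2 not called, and the iron exporter SLC40A1 lower at day 15. In these libraries 3.42%, 4.94% and 4.98% of all tested genes were called.

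Likeness in pattern was measured over the 12 group means of log2 CPM, for the 7 detected genes. SOD2 was closest to MT2A (Pearson r = 0.92), SLC39A8 (0.89) and MT1G (0.87), and least like MT1F (0.48). MT1G and SLC39A14 were alike (0.97), the same pair that was low in the high-mitochondrial libraries, and MT1F was closest to MT1X (0.82). Among 14999 tested genes with a mean of at least 1 CPM, those most like SOD2 were TNIP1 (0.99), an inhibitor of NF-κB signalling, TGFBI (0.99), a matrix protein, and the chemokine CXCL2 (0.99). For MT2A they were OTUB2 (0.98), PLAUR (0.96) and GOLGA7B (0.96), and for SLC39A8 OPTN (0.99), STK17A (0.98) and NT5E (0.98). For SLC39A14 they were SLC2A6 (0.97), MT2P1 (0.96), a pseudogene of MT2A, and SPRY4 (0.96). The 12 groups share the contrast between exposed and other cells, and these values are descriptions without a test.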

How the data were processed

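RNA was measured in 36 libraries, 3 in each of 12 groups, prepared with a stranded mRNA kit. The authors sequenced single-end reads, aligned them to GRCh37 and deposited counts per Ensembl gene from HTSeq, without normalization; the submitters' processing notes name bcl2fastq 2.17, Bowtie2 2.2.5, TopHat2 2.0.14 and HTSeq 0.6.1. The strand setting and the annotation release are not given in the sources used here, so reads of overlapping or antisense genes may be shared. Between 8.48% and 18.6% of reads fell on no gene and 2.62% to 4.18% were ambiguous; these lines were left out of library sizes. Groups and replicate numbers come from the labels. The p-values of the main fit rest on the spread within groups, estimated over all 12 groups of 3 replicates of 1 cell line.

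Genes were kept by filterByExpr (19180 of 63677), scaled by TMM and fitted together with edgeR 4.0.16 (R 4.3.3, limma 3.58.1) by its quasi-likelihood test, 12 groups as terms, 24 residual degrees of freedom, with Benjamini-Hochberg adjustment over all 19180 genes. Log2 CPM used a prior count of 2. Positions came from GENCODE v44lift37. In it SOD2 has a newer identifier that the tables do not list; the row of ENSG00000112096 was used, a link known from earlier Ensembl releases and not from a table. Rows had also been ranked against the authors' fold changes for SOD2, and the outcome was known when this row was kept, so the choice is not independent of them; no value of theirs enters the results. The model was tested on simulated counts in which 200 genes were changed by 2 on the log2 scale at day 21 of IL-1β. It called 155 of them (77.5%), with 4 false calls. These counts held no effect of mitochondrial share or replicate, so the simulation does not cover either. Alternatives were other scalings and filters, DESeq2 1.42.0, the likelihood ratio test, a replicate block, leaving out each replicate, leaving out or modelling the libraries over 10% mitochondrial counts, and separate fits. Lists without those libraries were counted as an alternative chosen after seeing the data. The 8 genes, the gene lists and the tests were chosen with earlier results of these data known. Named beside the 8 genes are up to 4 genes of each list past both thresholds with the largest change, and the 3 genes most alike in pattern; SLC30A4, SLC30A1, MTF1, SOD1, CAT and SLC40A1 were named after their values were seen. Replicates of a group differed by more than sampling noise. Python 3.11.15 with numpy 2.4.6, pandas 2.3.3 and matplotlib 3.10.9 was used for the rest.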

Additional observations from a re-analysis of the deposited data

Results flagged for a closer look

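The response of SOD2 to IL-1β differed between 2 time points by a test of the difference itself. From day 21 of IL-1β to day 30 after withdrawal the log2 fold change against control moved by -2.34 (SE 0.45, edgeR adjusted p = 0.00647), from 2.23 to -0.12. Without replicate 1 (adjusted p = 0.484 in edgeR) or replicate 2 (adjusted p = 0.0653) it did not pass, and the value lay between -2.66 and -2.05 with any replicate left out.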

How the results depend on the processing

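The rises of SOD2 at days 6, 15 and 21 and of MT2A at day 21 were called in all 13 alternatives. No alternative called any of the genes after withdrawal or between the untreated collections, where some fits called few genes of any kind. The count at day 6, 2 genes in the report, was 4 with at least 10 counts in every library, with DESeq2's Wald test and with the mitochondrial covariate, 5 in separate fits and 1 to 2 with a replicate left out. Of all genes, the first 3 of these fits called 304 of 13054, 587 of 19180 and 774 of 19180, beside 531 of 19180 in the report. The separate fit called 565 of 16698, and leaving out a replicate gave 176 to 405. At day 15 the 3 genes became 1 in separate fits, 4 with the covariate and 1 to 3 with a replicate left out, and at day 21 the 3 became 4 with the covariate and 2 to 3 with a replicate left out. The calls among all genes at day 15 were 424 of 17275, 959 of 19180 and 284 to 890 in these fits, beside 814 of 19180. For day 21 they were 1004 of 19180 and 299 to 634, beside 817 of 19180. For the response at day 6 after withdrawal against day 21, where 0 of the 7 genes were called, the count was 1 with at least 10 counts in every library. It was 2 with total counts, with no filter and with the covariate, and 3 with DESeq2 and with the likelihood ratio test. All genes called in these fits, in the same order, were 22 of 13054, 24 of 19180, 26 of 39471, 48 of 19180, 47 of 19180 and 40 of 19180, beside 26 of 19180 in the report. At day 30 against day 21 the 1 gene became 2 with the likelihood ratio test, 3 with DESeq2 and with the covariate, 4 without the high-mitochondrial libraries and 0 to 1 with a replicate left out. Calls among all genes were 171, 177 and 210 of 19180, 172 of 20248 and 7 to 109 in these fits, beside 120 of 19180 in the report. The cause was not tested.

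Same-numbered libraries of a time point deviated together in 14 of 18 pairs (correlation over 0.1), with a mean of 0.28 and a range from -0.34 to 0.72. No label says that the numbers pair the samples, and these values do not settle whether they do. With the replicate number as a block, 4 genes were called at day 6, 1 for day 6 after withdrawal against day 21 and 2 for day 30 against day 21, and the other counts were unchanged. Of all 19180 genes the block fit called 590, 34 and 158 in these comparisons, beside 531, 26 and 120 in the report.

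Of the log2 fold changes of single genes under the alternatives, 615 of 698 kept their direction and their side of the threshold and 23 changed sign. All 23 involve cells after withdrawal. With total counts only, where the median of all genes was 0.21 at day 15 after withdrawal (0.0232 with TMM) and 0.0888 at day 30 (-0.0039 with TMM), MT2A was 0.08 at day 15 after withdrawal, and SOD2 0.07 and SLC39A14 0.02 at day 30. Without the high-mitochondrial libraries MT2A was 0.17 and SLC39A14 -0.12 at day 15, and SOD2 0.32 and MT2A -0.13 at day 30. With the covariate SLC39A14 was -0.05, -0.06 and 0.01 at days 6, 15 and 30. With a replicate left out, SLC39A14 ranged from -0.08 to 0.30 at day 6, from -0.05 to 0.29 at day 15 and from -0.18 to 0.04 at day 30, MT2A from -0.17 to 0.31, from -0.35 to 0.12 and from -0.14 to 0.65, and SOD2 from -0.03 to 0.38 at day 15 and from -0.31 to 0.31 at day 30. SLC39A8 ranged from -0.04 to 0.59 at day 30 and MT1G from -0.05 to 1.57 at day 15. The change of MT1G from day 21 to day 6 after withdrawal ranged from -1.16 to 1.26.

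Over all genes, the 531, 814 and 817 calls of days 6, 15 and 21 were 176 to 405, 284 to 890 and 299 to 634 with a replicate left out, and 304, 443 and 448 with at least 10 counts in every library. Depth was too low to test MT1E, and MT1F and MT1G rest on 906 and 845 reads over all libraries.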
